A study of Rattus norvegicus with 8 samples.

Results

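The genes described here encode the subunits of mitochondrial complexes I to V, cytochrome c and a few close helpers, and were taken by symbol: every non-control probe whose array name began with Nduf, Uqcr, Cox4 to Cox8 or Atp5, or was Sdha, Sdhb, Sdhc, Sdhd, Cycs or Cyc1. The rule found 92 genes (126 probes) among 36151 genes (45551 probes) on the arrays. Of these, 81 encode structural subunits or cytochrome c, and the rest are 8 assembly factors of complex I, the coupling factor B gene Dmac2l, the supercomplex factor gene Cox7a2l and the pseudogene Cox6c-ps1. The array names Atp5s and Atp5sl are older symbols of Dmac2l and of Dmac2, a complex I assembly factor. Ndufa4, first assigned to complex I, is counted with complex IV.

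The cells were NR8383, an immortal line of alveolar macrophages started from a lavage of a healthy rat's lung, so all groups come from 1 line. They were kept for 4 h in medium without fetal bovine serum, either with nothing added (control) or with NM401, a multi-walled carbon nanotube, at 0.17 µg/mL. Each condition had 4 biological replicates, hybridised to 8 arrays of 1 colour. The study asks how gene expression in these cells changes after contact with the nanotube.

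Complex I takes electrons from NADH and complex II takes them from succinate, and both pass them to ubiquinone. Complex III hands them on to cytochrome c, complex IV passes them to oxygen, and the protons pumped on the way drive complex V, the ATP synthase. Most subunits are encoded in the nucleus and a few in the mitochondrial genome, and macrophages are known to shift between respiration and glycolysis when they are activated. Many of the nuclear genes are known to be driven by the factors NRF1, GABP (an ETS factor) and YY1.

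The start regions of these genes carry the known binding letters of those factors more often than other start regions, and 4 are printed to show this. RefSeq (build GRCr8) gave a promoter of 300 bases, 250 before and 50 after the start, for 77 member genes. The NRF1 palindrome, the 10 capitals in the first 3 sequences below, stood in 6 of the 77 promoters (7.79%), against 0.932% of 27457 promoters of all genes and 1.97% of the 9404 promoters of genes tested here. The YY1 core AAGATGG stood in 17 (22.1%), against 7.30% and 8.66%. The ETS core CCGGAAG stood in 20 (26%), against 9.22% and 18.6%. The CCAAT box stood in 32.5% of the member promoters, against 37.7% and 38.6%, and TATAAA in 7.79%, against 14.3% and 7.90%. Both strands were searched, motifs were allowed to overlap, and a match is a description of letters, not a site shown to be bound. Below are the 250 bases before the start, 5′ to 3′ on the gene's strand, with the motif in capitals. In Ndufaf4 and Ndufaf5, whose transcripts were higher with NM401, and in Atp5po, whose transcript was lower, the capitals mark the NRF1 palindrome, which began 158, 15 and 59 bases before the start. In Cox5b, whose transcript was lower, they mark the ETS core 14 bases before it. The palindrome thus stood before genes that moved in opposite directions.
Ndufaf4, chr5:43401545-43401794, + strand: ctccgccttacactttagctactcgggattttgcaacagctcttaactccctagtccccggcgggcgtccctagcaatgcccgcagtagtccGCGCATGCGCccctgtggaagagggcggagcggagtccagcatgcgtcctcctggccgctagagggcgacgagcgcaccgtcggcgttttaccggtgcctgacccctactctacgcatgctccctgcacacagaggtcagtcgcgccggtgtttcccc
Ndufaf5, chr3:147961362-147961611, + strand: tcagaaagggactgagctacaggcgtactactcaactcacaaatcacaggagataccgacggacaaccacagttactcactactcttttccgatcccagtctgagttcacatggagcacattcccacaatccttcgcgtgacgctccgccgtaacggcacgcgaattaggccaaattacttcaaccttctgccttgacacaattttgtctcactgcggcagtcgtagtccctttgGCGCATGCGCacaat
Atp5po, chr11:44657484-44657733, - strand: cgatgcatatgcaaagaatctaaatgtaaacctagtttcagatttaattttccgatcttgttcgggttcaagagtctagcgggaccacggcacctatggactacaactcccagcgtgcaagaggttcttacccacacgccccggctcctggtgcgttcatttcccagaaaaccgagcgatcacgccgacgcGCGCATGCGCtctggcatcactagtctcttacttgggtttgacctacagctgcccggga
Cox5b, chr9:46417587-46417836, + strand: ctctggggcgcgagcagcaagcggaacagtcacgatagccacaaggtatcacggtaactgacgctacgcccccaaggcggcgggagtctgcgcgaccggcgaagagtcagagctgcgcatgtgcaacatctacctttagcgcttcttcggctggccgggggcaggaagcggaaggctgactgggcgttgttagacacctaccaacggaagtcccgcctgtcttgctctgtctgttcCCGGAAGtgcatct

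A level here is the log2 of a probe's processed signal minus the log2 of the 75th percentile of that signal on the same array, so 0 is the 75th percentile. A difference is the NM401 mean minus the control mean of such levels, with the standard error (SE) of the limma fit, 4 arrays a group. A gene was called lower or higher where the limma p, adjusted by Benjamini-Hochberg over all 21684 tested probes, was below 0.05. Every difference is therefore relative to the array's own overall signal. That overall signal moved: the 75th percentile was 958 to 1489 on the control arrays and 2537 to 2878 on the NM401 arrays, and 7 spike-in probes stood 2.82 to 3.81 log2 units above it in control and 0.64 to 1.13 above it with NM401. Between 51.7% and 58% of spots were well above background. All control arrays and NM401 replicate 1 lay on slide 1, and NM401 replicates 2 to 4 on slide 2, scanned separately. Because controls lay in row 1 and NM401 arrays in row 2, the effect of row cannot be told apart from that of the nanotube. Of 9 macrophage markers on the arrays, 7 were well above background on all 8 arrays, among them Cd68 and Csf1r, while Marco was on none. Of the macrophage markers, 3 were called lower and 2 higher. Of 7 epithelial markers, 4 were not well above background on any array, and none reached it on all 8. Some markers of other cells did reach it on all 8. These were Cd3d (lymphocytes), Camp (neutrophils), and Cdh5, Col1a2 and Pecam1 (fibroblasts and endothelium). The summed signal of the macrophage markers, in multiples of the 75th percentile, was 127 to 136 in control and 112 to 119 with NM401, and that of the epithelial markers was 0.0533 to 0.0737 and 0.0250 to 0.0353. Lymphocyte markers summed to 0.101 to 0.143 in control and 0.0623 to 0.113 with NM401 (1 marker called lower), fibroblast and endothelial markers to 0.760 to 0.810 and 0.589 to 0.703 (2 called lower), and neutrophil markers to 0.462 to 0.651 and 0.312 to 0.438 (3 called lower). The part of these markers in the results below was not tested.

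Of the 92 genes, 89 were tested, and 86 of these were well above background on all 8 arrays. Ndufa4l2 and Cox8c were not well above background on any array, and Ndufs3, an iron-sulfur core subunit of complex I, was dropped because its spot was marked as an outlier on some array. Genes that RefSeq names so but the arrays do not (9 probes of 5 genes, among them Cox6b1 and Atp5if1) were kept out of the counts.

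Respiratory chain transcripts were called lower with NM401 more often than higher on the 75th percentile scale, and less often on the quantile scale. On the former, 45 of the 89 tested genes were lower, 15 were higher and 29 were not called, with a median difference of -0.21. Over all 17394 tested genes, 35.5% were called lower and 21.9% higher, with a median of -0.10. After quantile normalization, which gives all arrays the same distribution of signal, 19 of the 89 genes were lower and 26 higher, beside 26.7% and 28.6% of all genes. The median was then -0.01, beside 0.01 for all genes. Median scaling gave 20 lower and 22 higher members, beside 19.3% and 35% of all genes. Normexp background correction gave 44 and 15, beside 54% and 15.7%. Of the calls on the first scale, 25 were lost after quantile normalization, and 1 gene, Cox6a1, was called in opposite directions. With slide as a block, 32 members were lower and 7 higher, beside 20.2% and 12.7% of all genes, and within slide 1 these were 8 and 2, beside 7.82% and 4.33%. Both of these rest on NM401 replicate 1 alone. On the 75th percentile scale the 4 NM401 values lay below all 4 controls in 45 members and above them in 14, as they did in 32.3% and 21% of all genes.

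The probes of these genes were bright, and bright probes were more often lower than higher with NM401 on the 75th percentile scale. Of the 78 tested structural genes, 57 had a probe in the brightest 10% of all tested genes. Of those 57, 36 were lower and 6 higher, beside 58.6% lower and 10.9% higher among all 1740 genes of that brightness. The median difference of all genes was -0.25 in the brightest 10%, near 0 in the middle of the range and -0.36 in the dimmest 10%. Quantile normalization brought the medians of the brightest and dimmest genes to -0.01 and -0.07, and left 27.8% of the brightest genes lower and 30.4% higher. How much of the members' difference goes with signal strength was not tested beyond these counts.

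**Figure D1:**
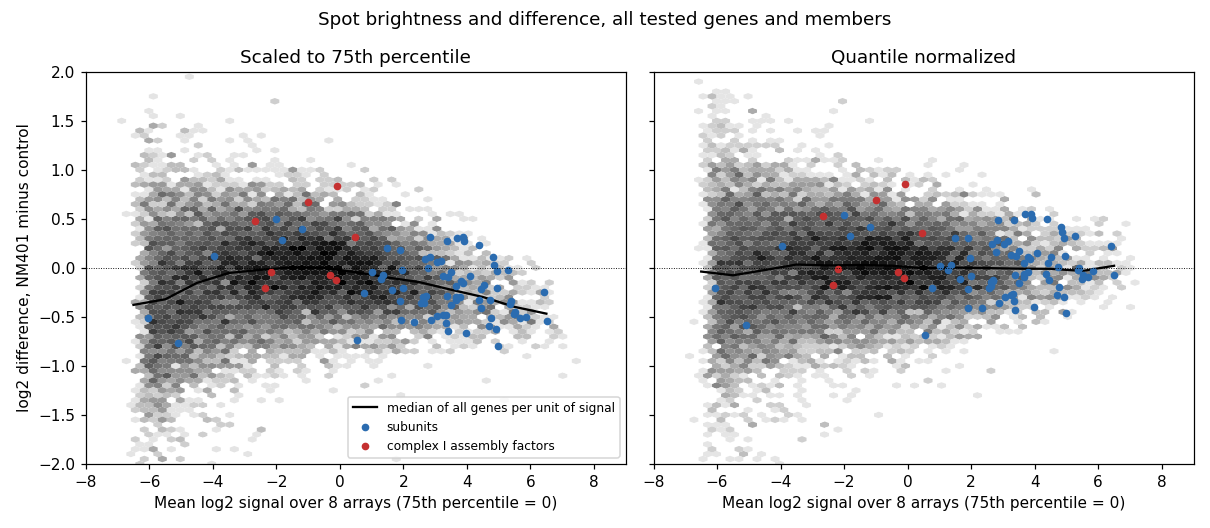
Difference between NM401 and control (vertical axis, log2) against mean log2 signal over the 8 arrays (horizontal axis, 75th percentile = 0), scaled to the 75th percentile at left and quantile normalized at right. Grey cells are all tested genes, the line is their median per unit of signal, blue points are subunits and red points are complex I assembly factors. Most subunits lie at the bright end, where the line bends below 0 at left and runs along 0 at right.

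On the 75th percentile scale all 9 tested genes of complex III were lower (100%, beside 35.5% of all genes, median -0.36). Of the 9, 7 were lower with normexp and 6 with slide as a block, beside 54% and 20.2% of all genes. Median scaling left 2 lower (22.2%, beside 19.3% of all genes). In complex I, 19 of 34 were lower and 4 higher (median -0.27), in complex V 8 of 15 and 1 (median -0.29), in complex IV 8 of 15 and 4 (median -0.21), and in complex II 1 of 4 and none (median -0.05). The lower shares of complexes I, V and IV (55.9%, 53.3% and 53.3%) lay near the 58.6% of all genes of the brightest 10%. The 8 complex I assembly factors among the members had 4 higher (50%, beside 21.9% of all genes) and none lower (beside 35.5%), with a median of 0.13. At an unadjusted limma p below 0.05 the empty directions held 0 genes in complexes II and III and among the assembly factors.

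Array by array, the median over complex III genes, relative to the control mean, was -0.08, -0.01, 0.02 and 0.08 in controls 1 to 4 and -0.34, -0.26, -0.35 and -0.32 with NM401. That of complex I was -0.02, -0.03, 0.07 and -0.02, then -0.27, -0.21, -0.25 and -0.26. The 4 NM401 arrays lay below the 4 controls in both complexes. For complex II the NM401 medians of 0.02, -0.06, -0.09 and -0.06 overlapped the control medians of -0.01, 0.09, 0.05 and -0.08, with replicate 3 just below the lowest control.

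Quantile normalization narrowed these distances. The medians became -0.06 for complex I, 0.06 for II, -0.08 for III, 0.12 for IV and -0.02 for V. In complex I, 10 genes were then lower and 9 higher, in complex II none and 1, in complex III 2 and none, in complex IV 5 and 6, and in complex V 2 and 4. The shares lower and higher were 29.4% and 26.5% in complex I, 0% and 25% in II and 22.2% and 0% in III. In complex IV they were 33.3% and 40%, and in V 13.3% and 26.7%. Over all genes these shares were 26.7% and 28.6%. The 8 assembly factors had 4 higher (50%, beside 28.6% of all genes) and none lower (beside 26.7%), with a median of 0.17. At an unadjusted p below 0.05, complex II had 1 lower gene on this scale, and complex III still had 0 higher.

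**Figure D2:**
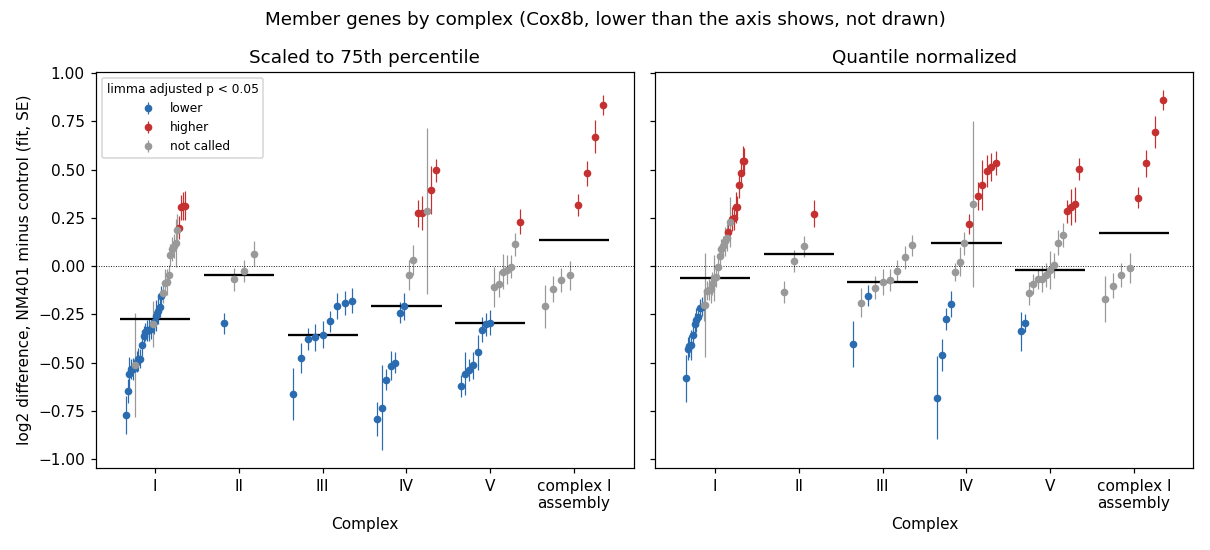
Difference between NM401 and control (log2, vertical axis) of tested subunit genes and complex I assembly factors, by complex. Values are scaled to the 75th percentile at left and quantile normalized at right. Cox8b, lower than the axis shows, is not drawn but counts in the complex IV median. Points are genes with the SE of the fit, coloured by their call, and black bars are medians over tested genes. The 9 complex III genes all lie below 0 at left, while at right the medians of the 5 complexes lie between -0.08 and 0.12.

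Calls that held under 4 ways of setting the arrays level (75th percentile, quantile, median scaling, and normexp background correction) numbered 15 lower and 14 higher among the 89 members (16.9% and 15.7%). Over all genes these shares were 18.2% and 14.5%, so the members' shares lay near the background. The lower genes were Ndufa10l1, Ndufa12, Ndufb10, Ndufb11, Ndufb5, Ndufc1, Ndufs7 and Ndufv3 of complex I, Uqcr11 of complex III, Cox5a, Cox5b, Cox7a2 and Cox8b of complex IV, and Atp5f1b and Atp5po of complex V. The higher genes were Ndufa1, Ndufa2, Ndufa6 and Ndufs5 of complex I, Cox4i2, Cox7b, Cox7c and Ndufa4 of complex IV, Atp5mg of complex V, the assembly factors Ndufaf1, Ndufaf2, Ndufaf4 and Ndufaf5, and Cox7a2l. Called also with slide as a block and within slide 1 were 6 lower genes (Ndufa10l1, Ndufa12, Ndufb10, Cox5a, Cox8b and Atp5po) and 2 higher ones (Ndufaf1 and Ndufaf2), which is 6.74% and 2.25% of members beside 6.50% and 3.55% of all genes. The lower counts include Cox8b, which passed the filter on dim probes only through the controls and so had to differ. With quantile normalization and slide as a block together, calls were lost for Ndufb5 (adjusted p = 0.125), Uqcr11 (0.0533), Cox5a (0.138), Cox5b (0.0807), Cox7a2 (0.16) and Atp5f1b (0.153). Of the higher genes, Ndufa2 (adjusted p = 0.116) and Cox4i2 (0.706) lost theirs.

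**Figure D3:**
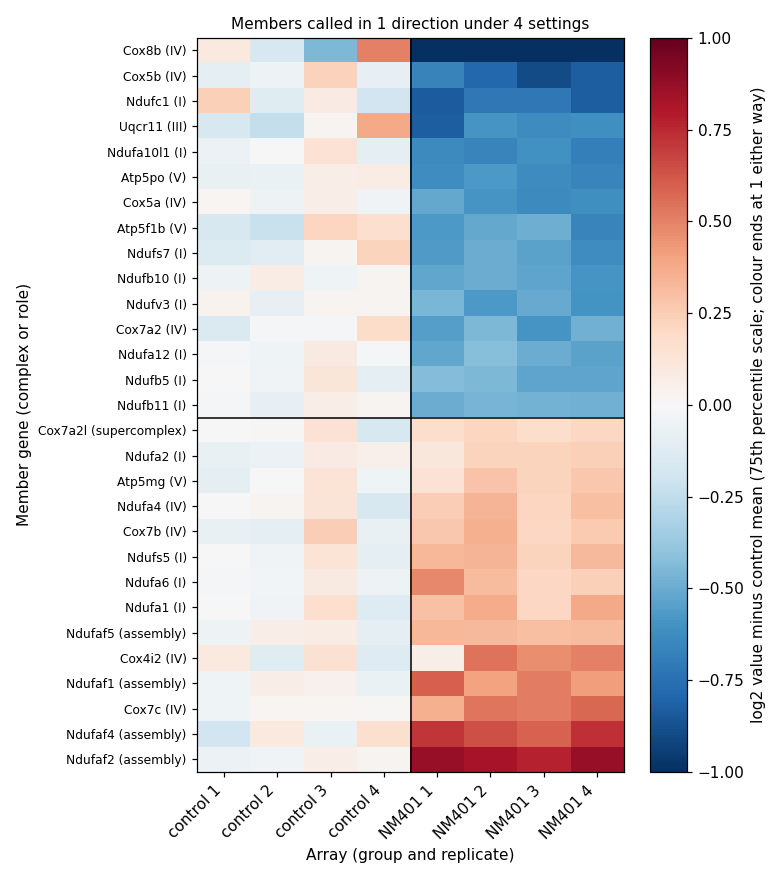
Value on each array minus the control mean (log2, 75th percentile scale) for the 29 members called in the same direction under 4 settings, 1 gene a row and 1 array a column. Blue is lower and red is higher, and the colour scale ends at 1 log2 unit either way, which Cox8b passes. Ndufaf2 is the reddest row and Cox4i2 is near the control mean on NM401 replicate 1.

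In complex I, whose core subunits carry the electrons and whose accessory subunits surround them, most core genes tested were lower on the 75th percentile scale. Of the 6 tested nuclear core genes, 4 were lower (66.7%, beside 35.5% of all genes) and none higher (beside 21.9%). Among the brightest genes the lower share was 58.6%, so the core share lay near that of bright probes. After quantile normalization 2 core genes were lower and 1 higher, and after median scaling 1 and 1. Ndufs7, the iron-sulfur subunit that passes electrons to ubiquinone (probe at chr7:10963975-10964034, build rn4), stood at 2.48, 2.51, 2.65 and 2.85 in controls 1 to 4 and at 2.05, 2.13, 2.08 and 2.00 with NM401. All 4 NM401 values lay below all controls. Ndufs7 fell by 0.56 ± 0.09 (limma adjusted p = 0.00108), and by 0.41 ± 0.08 after quantile normalization. The slide block left the difference at -0.57 (adjusted p = 0.0247).

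Ndufs1, the largest iron-sulfur subunit, fell by 0.34 ± 0.05 (adjusted p = 0.000526), and Ndufv1, which binds the flavin that takes electrons from NADH, by 0.33 ± 0.06 (adjusted p = 0.0023). Ndufs8, another iron-sulfur subunit, fell by 0.26 ± 0.08 (adjusted p = 0.0246). After quantile normalization Ndufs1 was still lower (-0.22), while Ndufv1 (-0.09) and Ndufs8 (-0.20) were not called. Ndufv2 was not called on either scale.

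Among the accessory subunits the largest falls were in Ndufc1 and Ndufa10l1. Ndufc1, a small membrane arm subunit with a dim probe (chr2:140298770-140298829), stood at -4.46, -4.82, -4.62 and -4.89 in controls and at -5.53, -5.42, -5.41 and -5.52 with NM401. The groups did not overlap. Ndufc1 fell by 0.77 ± 0.10 (adjusted p = 0.000425), and by 0.58 ± 0.12 after quantile normalization.

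Ndufa10l1, by its name a gene like the accessory subunit gene Ndufa10, gave 3.66, 3.72, 3.86 and 3.63 in controls and 3.08, 3.06, 3.11 and 3.03 with NM401. The NM401 arrays lay close together and below all controls. Ndufa10l1 fell by 0.65 ± 0.06 (adjusted p = 0.000141), by 0.43 ± 0.06 after quantile normalization, and by 0.64 with slide as a block (adjusted p = 0.0065). These values are from its brighter probe, on chromosome 9 at 91655487 to 91655546. A dimmer Ndufa10l1 probe on that chromosome (91676399 to 91676458) fell by 0.65 ± 0.06 (limma adjusted p = 0.000156). The probe named Ndufa10 lies between them (91661939 to 91661998), was dim and was not called (0.12 ± 0.12). Which gene each probe reads is uncertain.

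On the 75th percentile scale the rises in complex I were smaller. Ndufa6, an accessory subunit of the arm that reaches into the matrix (chr7:120726147-120726206), gave 3.71, 3.69, 3.81 and 3.67 in controls and 4.20, 4.04, 3.93 and 3.96 with NM401. All NM401 values lay above all controls. Ndufa6 rose by 0.31 ± 0.07 (adjusted p = 0.00755), and by 0.55 ± 0.07 after quantile normalization. The slide block left it higher (0.48, adjusted p = 0.00887).

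Ndufa1, a small membrane subunit encoded on the X chromosome, gave 2.69, 2.66, 2.86 and 2.56 in controls and 2.99, 3.06, 2.90 and 3.07 with NM401, a rise of 0.31 ± 0.08 (adjusted p = 0.00866). Ndufs5, a subunit on the intermembrane side, gave 3.54, 3.51, 3.68 and 3.45, then 3.88, 3.88, 3.76 and 3.86, a rise of 0.30 ± 0.06 (adjusted p = 0.00447). In both genes the NM401 values lay above the controls, in Ndufa1 by a narrow gap between replicate 3 of each group. After quantile normalization the differences were 0.48 and 0.55. Ndufs5 was called with slide as a block (0.33, adjusted p = 0.0481) and Ndufa1 was not (0.30, adjusted p = 0.112).

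Ndufb8, the complex I gene with the brightest probe, shows how the scale sets the call. Its levels were 5.52, 5.49, 5.63 and 5.58 in controls and 5.19, 5.29, 5.19 and 5.23 with NM401, with no overlap, and it fell by 0.33 ± 0.05 (adjusted p = 0.00126). After quantile normalization it was not called (adjusted p = 0.94). Ndufb3, Ndufb6, Ndufb7, Ndufs6 and Ndufa5 were not called on the 75th percentile scale (-0.08 to 0.11), and all but Ndufb3 were higher after quantile normalization (0.18 to 0.42).

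The assembly factors of complex I, which build the enzyme and leave it, moved in both directions. Of 14 such genes taken as a list, 6 were higher and 3 lower on the 75th percentile scale (42.9% and 21.4%, beside 21.9% and 35.5% of all genes), and the same counts held after quantile normalization. Their median was -0.07, beside -0.10 for all genes. With normexp 5 were higher and 5 lower, and with slide as a block 5 and 1. Their probes were dimmer than those of the subunits, with a median signal percentile of 67.9 among tested genes against 94.5 for the structural genes. Ndufaf2, a relative of Ndufa12 that holds its place during assembly (chr2:39269431-39269490), gave -0.55, -0.54, -0.43 and -0.47 in controls and 0.37, 0.33, 0.27 and 0.37 with NM401. The groups lay far apart beside the spread within each. Ndufaf2 rose by 0.84 ± 0.05 (adjusted p = 4.19e-05), by 0.86 ± 0.05 after quantile normalization, and by 0.87 with slide as a block (adjusted p = 0.00262) and within slide 1 (adjusted p = 0.0348). Ndufa12 itself fell by 0.49 ± 0.05 (adjusted p = 0.00021), and by 0.30 after quantile normalization.

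Ndufaf4, a factor for the arm that binds ubiquinone (chr5:39944700-39944759), gave -1.53, -1.24, -1.40 and -1.18 in controls and -0.62, -0.69, -0.75 and -0.60 with NM401. No values overlapped. Ndufaf4 rose by 0.67 ± 0.08 (adjusted p = 0.000408), and by 0.69 ± 0.08 after quantile normalization. A dimmer Ndufaf4 probe, well above background on all 8 arrays, rose by 0.64 ± 0.11 (adjusted p = 0.00187).

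Ndufaf1, a factor of the membrane arm, rose by 0.48 ± 0.06 (adjusted p = 0.000522). Ndufaf5, an enzyme that hydroxylates Ndufs7, rose by 0.32 ± 0.06 (adjusted p = 0.00192), and its partner Ndufaf8 by 0.60 ± 0.06 (adjusted p = 0.000199). Timmdc1, a membrane factor, was higher as well (0.35 ± 0.10, adjusted p = 0.0223). Lower were Ecsit (-0.36), Acad9 (-0.33) and Tmem126b (-0.31). None of these 3 was called after median scaling. Ndufaf3, Ndufaf6, Ndufaf7, Nubpl, Foxred1 and, among the members, Dmac2 were not called on either scale.

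**Figure D4:**
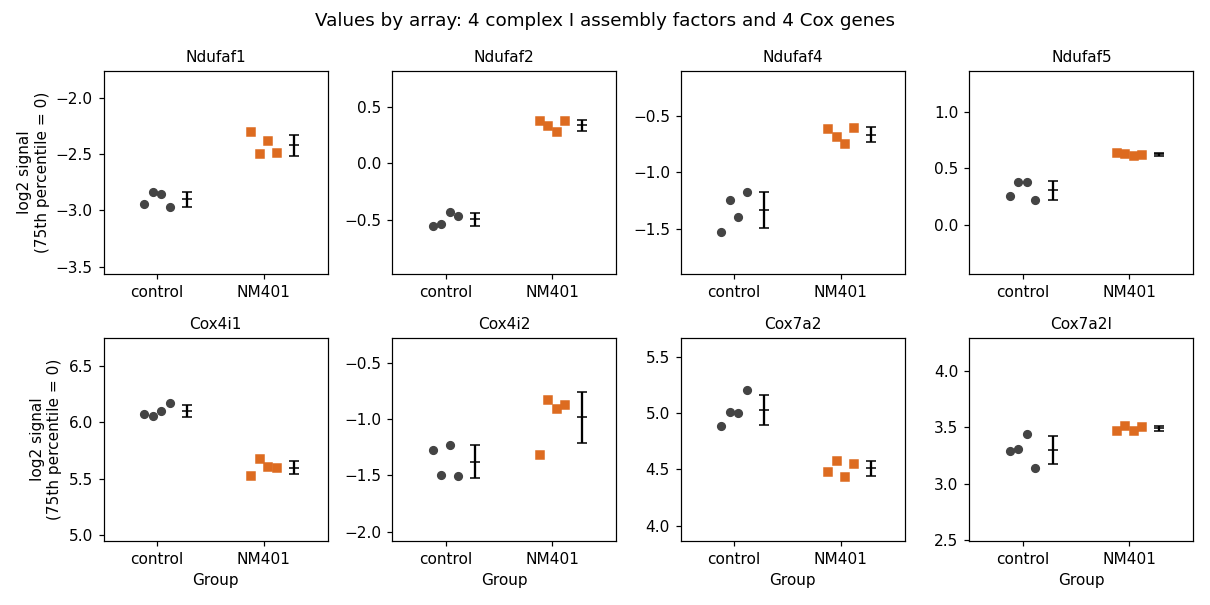
Log2 signal on each array (75th percentile = 0) for 4 complex I assembly factors (top) and 4 Cox genes (bottom), with the group mean and SD beside the points (n = 4). Every panel spans the same number of log2 units. The assembly factors and Cox7a2l are higher with NM401, Cox4i1 and Cox7a2 are lower, and Cox4i2 overlaps on NM401 replicate 1.

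Complex II also serves the citric acid cycle. Of its 4 genes, 1 was called on each scale, Sdha lower on the 75th percentile scale and Sdhd higher after quantile normalization. Sdha, the flavoprotein that oxidises succinate, gave 2.83, 2.81, 2.94 and 2.76 in controls and 2.53, 2.54, 2.59 and 2.50 with NM401. Sdha fell by 0.30 ± 0.05 (adjusted p = 0.00249) with no overlap, and was not called after quantile normalization (-0.13, adjusted p = 0.0815). Sdhb, the iron-sulfur subunit, gave 1.93, 2.06, 2.01 and 1.89, then 2.00, 1.92, 1.96 and 1.90. The groups overlapped and Sdhb was not called on either scale.

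Sdhc, a membrane anchor, gave 1.39, 1.49, 1.37 and 1.36, then 1.42, 1.32, 1.24 and 1.35, and was called on neither scale. Sdhd, the other anchor, gave 3.14, 3.22, 3.19 and 3.00, then 3.29, 3.18, 3.17 and 3.17. Its groups overlapped on the 75th percentile scale (0.07 ± 0.07), and after quantile normalization Sdhd was higher (0.27 ± 0.07, adjusted p = 0.0113). The complex II assembly factor Sdhaf1 was higher on both scales (0.43 ± 0.08, adjusted p = 0.00256).

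In complex III the largest difference was in Uqcr11, its smallest subunit (chr7:10819606-10819665). Uqcr11 gave 4.15, 4.07, 4.34 and 4.69 in controls and 3.49, 3.72, 3.68 and 3.70 with NM401. Control replicate 4 was the highest and NM401 replicate 1 the lowest, and no values overlapped. Uqcr11 fell by 0.66 ± 0.13 (adjusted p = 0.00375), by 0.40 ± 0.12 after quantile normalization (adjusted p = 0.0207), and by 0.82 with slide as a block (adjusted p = 0.0261).

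Uqcrfs1, the Rieske iron-sulfur protein that takes electrons from ubiquinol, gave 3.60, 3.66, 3.71 and 3.77, then 3.39, 3.28, 3.33 and 3.24. It fell by 0.38 ± 0.06 (adjusted p = 0.00106), and was the other gene of the complex still lower after quantile normalization (-0.15 ± 0.05, adjusted p = 0.0446). Uqcr10, a small subunit with the brightest probe of the complex, gave 5.56, 5.76, 5.64 and 5.90, then 5.25, 5.29, 5.18 and 5.24, a fall of 0.47 ± 0.08 (adjusted p = 0.00144). After quantile normalization it was not called (-0.11). Uqcr10, Uqcr11 and Uqcrfs1 each had all NM401 values below all controls.

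Cyc1, the cytochrome that reduces cytochrome c, gave 4.56, 4.61, 4.59 and 4.71 in controls and 4.39, 4.54, 4.33 and 4.49 with NM401. It was lower by a small margin (-0.18 ± 0.06, adjusted p = 0.0443), and its sign turned after quantile normalization (0.11, not called). The core proteins Uqcrc1 and Uqcrc2 fell by 0.36 and 0.21, Uqcrq by 0.37, Uqcrb by 0.29 and Uqcrh by 0.19, and none of these 5 was called after quantile normalization. Of 9 tested assembly factors of complexes II and III, 2 were higher (22.2%, beside 21.9% of all genes). These were Sdhaf1 and Uqcc2, the latter by 0.28 ± 0.05. None was lower (0 also at an unadjusted p below 0.05), beside 35.5% of all genes called lower. With normexp 1 of the 9 was lower and 2 were higher.

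Cytochrome c, the soluble carrier between complexes III and IV, was read by a pair of probes that differed on 1 array. The brighter Cycs probe (chr4:78825928-78825987) gave 2.86, 3.04, 2.86 and 2.95 in controls and 3.24, -7.10, 3.14 and 3.24 with NM401. NM401 replicate 2 lay far below all other arrays, and the probe was not well above background there. With it Cycs was not called (-2.30 ± 2.22, adjusted p = 0.401), and without it Cycs was higher (0.28, adjusted p = 0.0165). The other Cycs probe (chr4:78826694-78826753) gave 1.25, 1.40, 1.40 and 1.34, then 1.81, 1.73, 1.70 and 1.65. It was higher by 0.37 ± 0.06 (adjusted p = 0.00121), with NM401 replicate 2 among the other NM401 arrays.

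Some other genes had probes that differed as well, which is why the first 30 of 60 bases of 6 probes are shown for Cycs, Uqcrb and Cox5b. Of 26 member genes with several tested probes, 17 had all probes with the same call and 1, Uqcrb, had opposite calls. The bright Uqcrb probe was lower (-0.29 ± 0.06), and a dim one was higher (0.36 ± 0.08, adjusted p = 0.0066). The bright Cox5b probe was lower by 0.79, and a dimmer one whose position overlaps it was lower by 0.26 ± 0.07 (adjusted p = 0.016).
Cycs, chr4:78825928-78825987: ctgattgggagtggtactcttttctaactt
Cycs, chr4:78826694-78826753: ctggaattaagaagaagggagaaaggacag
Uqcrb, chr7:67959058-67959117: ttctaccttgaaccctgtctgaaagaggtt
Uqcrb, chr7:67958447-67958506: ttgcatttaggaaaagtctgtattccatta
Cox5b, chr9:35627211-35627270: aaatggtccactgagcccacccctggttta
Cox5b, chr9:35627238-35627298: ttaacatttcagaatgtaaaggaaaacgtc

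In complex IV, whose nuclear subunits surround a catalytic core encoded in the mitochondrion, genes moved in both directions. Cox5b, a zinc-binding subunit on the matrix side, gave 5.28, 5.33, 5.61 and 5.30 in controls and 4.71, 4.59, 4.49 and 4.56 with NM401. All NM401 values lay below all controls. Cox5b fell by 0.79 ± 0.09 (adjusted p = 0.000236), by 0.46 ± 0.08 after quantile normalization, and by 0.67 with slide as a block (adjusted p = 0.0117), while both together left -0.34 and no call. Its second probe was not called after quantile normalization (-0.03).

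Cox5a, a neighbouring matrix-side subunit (chr8:61276321-61276380), gave 5.01, 4.94, 5.06 and 4.96, then 4.48, 4.40, 4.35 and 4.38. The distance between the groups was several times the spread within them. Cox5a fell by 0.59 ± 0.05 (adjusted p = 0.000115), by 0.27 ± 0.06 after quantile normalization, and by 0.51 with slide as a block (adjusted p = 0.00578), while both together left -0.17 and no call. Cox6b2, known as the testis form of subunit 6b, gave 0.64, 0.42, 1.04 and 1.52, then -0.01, 0.31, 0.19 and 0.20, and fell by 0.73 ± 0.22 (adjusted p = 0.0219). Its controls were widely spread, and with slide as a block it was not called (adjusted p = 0.0934).

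Higher in complex IV were Cox7c, Ndufa4, Cox7b and Cox4i2. Cox7c, a small membrane subunit whose probe spans a gap in the genome (chr2:15254139-15255000), gave -2.30, -2.24, -2.24 and -2.24 in controls and -1.90, -1.72, -1.74 and -1.68 with NM401. No values overlapped. Cox7c rose by 0.50 ± 0.06 (adjusted p = 0.000343), by 0.53 ± 0.06 after quantile normalization, and by 0.36 with slide as a block (adjusted p = 0.0122). Both Cox7c probes were called higher.

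Ndufa4 gave 3.77, 3.80, 3.89 and 3.61, then 4.01, 4.10, 3.98 and 4.06. The NM401 arrays lay above the controls, and Ndufa4 rose by 0.27 ± 0.07 (adjusted p = 0.0107) and by 0.51 ± 0.07 after quantile normalization. It was not called with slide as a block (0.25, adjusted p = 0.138).

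Several complex IV subunits exist as general forms and as forms of particular tissues or of low oxygen. Cox4i1, the general form of subunit 4, gave 6.07, 6.05, 6.10 and 6.17 in controls and 5.53, 5.67, 5.60 and 5.60 with NM401. Cox4i1 fell by 0.50 ± 0.05 (adjusted p = 0.000209) with no overlap, and was not called after quantile normalization (-0.03). Cox4i2, the form known from lung and from low oxygen, gave -1.28, -1.50, -1.23 and -1.51, then -1.32, -0.83, -0.91 and -0.87. It rose by 0.39 ± 0.12 (adjusted p = 0.0254), but NM401 replicate 1 lay among the controls, and with slide as a block, which rests on that array, the difference was 0.06 (adjusted p = 0.751).

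Cox6a1, the general form of subunit 6a and the brightest probe of complex IV, turned with the scale. Its levels were 6.52, 6.47, 6.63 and 6.51, then 6.30, 6.34, 6.25 and 6.28. It fell by 0.24 ± 0.05 (adjusted p = 0.00593) on the 75th percentile scale, and rose by 0.22 ± 0.05 (adjusted p = 0.00857) after quantile normalization. Cox6a2, the heart and muscle form, was spread widely in controls (-2.60, -1.32, -2.99 and -0.93) and narrowly with NM401 (-1.62, -1.63, -1.65 and -1.79), and was not called.

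Cox7a2, the general form of subunit 7a, gave 4.88, 5.01, 5.00 and 5.21, then 4.48, 4.58, 4.44 and 4.55, and fell by 0.52 ± 0.08 (adjusted p = 0.00085). Cox7a2l, a related protein that joins complexes III and IV, gave 3.29, 3.31, 3.44 and 3.14, then 3.47, 3.51, 3.47 and 3.50, and rose by 0.19 ± 0.07 (adjusted p = 0.041). The fall in Cox7a2 was called after quantile normalization (-0.20) and with slide as a block (-0.55, adjusted p = 0.0177), and not with both together (-0.22). The rise in Cox7a2l was called after quantile normalization (0.41) and not with the block (0.17, adjusted p = 0.274).

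Cox7b, the general form of subunit 7b, gave 3.14, 3.13, 3.47 and 3.15, then 3.49, 3.58, 3.43 and 3.49. Control replicate 3 lay among the NM401 arrays, and Cox7b rose by 0.27 ± 0.09 (adjusted p = 0.0259). Cox7b2, its testis form, gave 1.14, 1.15, 1.04 and 0.85, then 1.02, 1.02, 0.94 and 1.02, and was called on neither scale. Cox7b was not called with slide as a block (0.27, adjusted p = 0.19).

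Cox8a, the general form of subunit 8, gave 5.02, 5.02, 5.16 and 5.04, then 4.79, 4.96, 4.92 and 4.74. It fell by 0.21 ± 0.07 (adjusted p = 0.0313), and its sign turned after quantile normalization (0.12, not called). Cox8b, the heart and muscle form, gave -4.61, -4.86, -5.15 and -4.20 in controls and -6.59, -7.53, -7.26 and -7.20 with NM401, a difference of -2.44 ± 0.25 (adjusted p = 0.000162). It was well above background on all 4 controls and on 1 NM401 array, so the size is not well measured, and with normexp it was -1.34. Its probe was among the dimmest tested, where all genes had a negative median. Of 14 tested complex IV assembly factors, 4 were lower and 2 higher (28.6% and 14.3%, beside 35.5% and 21.9% of all genes), among them Coa4 (0.39 ± 0.05, higher) and Cox15 (-0.28 ± 0.05, lower), which makes heme A.

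In complex V the largest falls were in the catalytic head and the stalk that holds it. Atp5po, the stalk subunit called OSCP, gave 5.16, 5.16, 5.29 and 5.30 in controls and 4.60, 4.65, 4.59 and 4.57 with NM401. The NM401 arrays lay close together and below all controls. Atp5po fell by 0.62 ± 0.06 (adjusted p = 0.000114), by 0.29 ± 0.05 after quantile normalization, and by 0.62 with slide as a block (adjusted p = 0.00529) and within slide 1 (adjusted p = 0.0417).

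Atp5f1b, the catalytic beta subunit (chr7:1378451-1378510), gave 3.47, 3.41, 3.84 and 3.80, then 3.06, 3.12, 3.14 and 2.97. It fell by 0.56 ± 0.11 (adjusted p = 0.00338) with no overlap, and by 0.34 ± 0.10 after quantile normalization. With slide as a block it was not called (-0.57, adjusted p = 0.0527). Atp5f1a, the alpha subunit and the brightest probe of complex V, gave 6.77, 6.69, 6.85 and 6.81, then 6.27, 6.32, 6.18 and 6.20. It fell by 0.54 ± 0.06 (adjusted p = 0.000213), and was not called after quantile normalization (-0.07).

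The membrane ring of complex V is built from copies of a protein that several genes encode. Atp5mc1 gave 5.84, 5.84, 6.01 and 6.04, then 5.35, 5.48, 5.37 and 5.48. Atp5mc2 gave 5.47, 5.72, 5.87 and 5.86, then 5.24, 5.33, 5.28 and 5.29. Both fell, by 0.51 ± 0.07 (adjusted p = 0.000558) and 0.45 ± 0.09 (adjusted p = 0.00403), with no overlap. Atp5mc3 gave 1.21, 1.28, 1.25 and 1.59, then 1.17, 1.34, 1.31 and 1.07, and was not called. None of the 3 was called after quantile normalization.

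Atp5mg, a membrane subunit where enzymes pair, was the complex V gene called higher. It gave 4.17, 4.26, 4.40 and 4.22, then 4.41, 4.54, 4.48 and 4.53, and rose by 0.23 ± 0.07 (adjusted p = 0.0175) and by 0.50 ± 0.06 after quantile normalization. With slide as a block it was not called (0.15, adjusted p = 0.3). Atp5f1e, Atp5me and Atp5mf were not called on the 75th percentile scale and higher after quantile normalization (0.31, 0.32 and 0.28). Atp5if1, the protein that blocks the enzyme when it runs backwards, was higher (0.52 ± 0.07, adjusted p = 0.000537), and Atpaf1, which helps to assemble the head, was lower (-0.26 ± 0.05, adjusted p = 0.00315).

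Genes around the chain were called in both directions. Of 18 genes of the citric acid cycle and pyruvate dehydrogenase, 6 were lower and 5 higher (33.3% and 27.8%, beside 35.5% and 21.9% of all genes), with the largest fall in Idh2, the mitochondrial NADP-dependent isocitrate dehydrogenase (-0.64 ± 0.06, adjusted p = 0.000114). Of 11 carrier and channel genes, 4 were lower (36.4%, beside 35.5% of all genes) and none higher (0 also at an unadjusted p below 0.05, beside 21.9% of all genes called), led by Vdac1, the outer membrane channel (-0.70 ± 0.07, adjusted p = 0.000145). The carriers of ADP and phosphate, Slc25a4, Slc25a5 and Slc25a3, were not called on the 75th percentile scale. After quantile normalization 3 of the 11 were lower and 1 higher, and the median moved from -0.08 to 0.12. Median scaling gave 1 and 1.

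Of 12 tested genes of coenzyme Q synthesis, 5 were lower and 1 higher (41.7% and 8.33%, beside 35.5% and 21.9% of all genes), and after quantile normalization 3 and 2. Coq8a, a kinase-like regulator of that pathway, fell by 1.16 ± 0.08 (adjusted p = 4.31e-05), and Coq2, which attaches the tail, by 0.45 ± 0.08 (adjusted p = 0.00269). Coq8a stayed lower with slide as a block, and Coq2 did not.

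Of 16 tested regulators of mitochondrial biogenesis and genome upkeep, 9 were higher and 2 lower (56.2% and 12.5%, beside 21.9% and 35.5% of all genes), with a median of 0.24 beside -0.10 for all genes. After quantile normalization 11 were higher and 2 lower, and with normexp 6 and 3. Tfam, which packs and transcribes the mitochondrial genome, rose by 0.46 ± 0.06 (adjusted p = 0.000443), Pprc1, a coactivator of NRF1, by 0.55 ± 0.09 (adjusted p = 0.00118), and Esrra, a nuclear receptor acting on respiratory genes, by 0.32 ± 0.05 (adjusted p = 0.00109). Gabpa, Yy1 and Nrf1 were higher by 0.37, 0.37 and 0.16, the last 2 not with normexp background correction. Pprc1, Esrra, Gabpa, Yy1 and Nrf1 were named in addition to the 3 genes of smallest p (Polg, Tfam and Mterf1). All of these added genes were higher, so they do not stand for the whole list. Polg, the mitochondrial DNA polymerase, fell by 1.37 ± 0.09 (adjusted p = 4.19e-05), and was lower under all the settings named above. The slide block left 4 of the 16 higher and 1 lower, beside 12.7% and 20.2% of all genes. Within slide 1, which holds 1 NM401 array, the median difference was 0.17, beside -0.08 for all genes.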

How the data were processed

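Spot intensity values in the deposited scanner files were made by the authors with Agilent's Feature Extraction software (version 11.0.1.1, named in the submitters' processing notes). The processed signal in them is, per the file headers, background-subtracted and unscaled between arrays. Outlier-marked spots were left out, spots of a probe averaged on the log2 scale, and a probe was tested if at least 4 of 8 arrays had it well above background (21684 probes). Probe positions are on rn4, per the file headers. A gene is its brightest tested probe, named through RefSeq (GRCr8) or by the array. The fit was limma 3.58.1 in R 4.3.3 (lmFit, eBayes, two-sided), with no covariate. The alternatives were quantile normalization, median scaling, normexp (offset 50), the series values, filters on dim probes, the mean of probes, slide and replicate blocks, and leaving out each array. Quantile normalization with slide was added after seeing the data. Members and lists were chosen with earlier results of these data known. Per-array values follow the rule of up to 3 called, non-overlapping members in each direction per complex, all complex II genes, Cycs, Cyc1, isoform pairs and the brightest probe of each complex, and other lists give up to 3 members by smallest p. The assembly factors and some further list genes were chosen after their values were seen. The fit was tested on simulated data. The number of arrays limits the precision. A result for 1 member gene is not reported here.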

Additional observations from a re-analysis of the deposited data

Results flagged for a closer look

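Gaps between 1 array and the rest of its group, divided by the group's range, passed the limit for 4 values (0.829) in 10 of 84 groups of the genes given by array, and chance alone passes about 1 group in 20. The most extreme was the brighter Cycs probe on NM401 replicate 2 (gap 0.990 of the range, level -7.10). Low NM401 values were those of Ndufs5 on replicate 3 (0.848), Uqcr11 on replicate 1 (0.830) and Cox7b2 on replicate 3 (0.909), and also of Cox4i2 on replicate 1 (0.830). Sdhd was high on NM401 replicate 1 (0.903). Control replicate 3 was high for Cox5b (0.845), Cox7b (0.938) and Cox8a (0.859). Cox7c was low on control replicate 1 (0.883), in a group with a narrow range.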

How the results depend on the processing

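Of the calls on members, 25 were lost by quantile normalization, 25 by median scaling, 21 with slide as a block and 50 within slide 1. The counts of members lower and higher (45 and 15) were 19 and 26 after quantile normalization, 20 and 22 after median scaling, 44 and 15 with normexp, 43 and 17 on the series values, 36 and 9 with no filter on dim probes, 32 and 7 with slide as a block, 8 and 2 within slide 1, 11 and 18 with quantile normalization and slide as a block, and 1 and 3 with it within slide 1. Leaving out 1 array gave 39 to 45 lower and 9 to 15 higher, the 9 without NM401 replicate 4. The replicate numbers did not pair the arrays (correlations of same-numbered deviations 0.19, -0.01, 0.09 and -0.06). A replicate block gave 43 lower and 11 higher, with 6 calls lost.

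The median over members (-0.21) became -0.011 by quantile normalization, -0.0047 by median scaling, -0.16 with the mean of probes, -0.17 in both slide fits, and 0.010 in both slide fits after quantile normalization. By quantile normalization, by median scaling, and by quantile normalization in both slide fits, in that order, the medians of the complexes were -0.060, -0.070 and -0.022 (I), 0.065, 0.16 and 0.12 (II), -0.082, -0.15 and -0.035 (III), 0.12, -0.0047 and 0.055 (IV), and -0.019, -0.090 and -0.031 (V). With normexp and on the series values they were -0.23 and -0.23 (I), 0.044 and 0.057 (II), -0.26 and -0.26 (III), and -0.091 and -0.072 (IV). Complex II was 0.022 in both slide fits, complex IV -0.13 for probes well above background on all 8 arrays, and complex V -0.16 with the mean of probes. Leaving out 1 array gave -0.30 to -0.24 for complex I and -0.38 to -0.30 for complex III.

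Quantile normalization turned the sign of 7 called members, and 10 were turned in each slide fit after it. Among the genes given by array, signs turned for Cyc1 (0.11 by quantile normalization, 0.024 by median scaling, 0.076 in both slide fits after quantile normalization), Cox6a1 (0.22, and 0.29 in both slide fits after it), Cox8a (0.12 and 0.055), Ndufb8 (0.0042 in those slide fits), Atp5f1a (0.011 there) and Cycs (0.28 without NM401 replicate 2, 0.31 in both slide fits, against -3.17 without NM401 replicate 4). The cause was not tested. With normexp, 40 of the genes given by array kept their direction and side of the threshold and 2 lost their call, with slide as a block 31 and 11, and within slide 1 14 and 28.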

Other observations

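The part of the chain encoded in the mitochondrion could not be counted by symbol, since none of its 13 gene symbols matched an array name, but 16 tested probes had a position on the mitochondrial genome (rn4). Of these, 13 were lower and 2 higher with NM401 on the 75th percentile scale (81.25% and 12.5%, beside 35.5% and 21.9% of all genes). Their median difference was -0.80. After quantile normalization 10 of the 16 probes were lower and 2 higher (62.5% and 12.5%, beside 26.7% and 28.6% of all genes). Their median was then -0.31. These medians pool the probes of both strands, which are given apart below. Their genes are not named in the sources used here, and only 1 had a description of a subunit, cytochrome c oxidase III. That probe (M, 8715 to 8774) fell by 0.37 ± 0.06 (limma adjusted p = 0.00111, 4 arrays a group) and was not called after quantile normalization (0.06).

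The 12 probes on the forward strand of the file's coordinates had 9 lower and 2 higher (75% and 16.7%). Their differences ran from -1.25 to 0.31, with a median of -0.58. After quantile normalization 6 were lower and 2 higher (50% and 16.7%), with a median of -0.11. Over all genes 35.5% were lower and 21.9% higher on the 75th percentile scale, and 26.7% and 28.6% after quantile normalization. The 4 probes on the reverse strand were lower on both scales, but the one at 6410 to 6469 was well above background on 4 controls and 1 NM401 array, so it passed the filter only through the controls and had to differ. Their positions were 3285 to 3344, 4473 to 4532, 6410 to 6469 and 13531 to 13590, and they differed by -1.08 ± 0.07, -2.14 ± 0.18, -1.93 ± 0.20 (-1.15 with normexp) and -1.14 ± 0.15. Array names for some of these are those of nuclear genes (Tpm3 for the first), so what they read is uncertain. With slide as a block all 4 were lower, and within slide 1, which rests on NM401 replicate 1, 3 were.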
